A study of Mus musculus with 11 samples.

Results

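The replication-dependent histone genes, the clustered gene copies that supply the core and linker histones of newly made chromatin, were followed in bulk RNA-seq of alveolar macrophages from newborn mice. They were taken by name, as every gene of the Hist1, Hist2, Hist3 and Hist4 clusters, and kept where at least 2 libraries held 10 or more counts. Of the 57180 gene identifiers in the count table, 70 were histone cluster genes and 65 of these were kept. The 65 comprised 6 genes for the linker histone H1 and 17 for H2A, 18 for H2B, 11 for H3 and 13 for H4, the 4 core histones. Chromosome 13 carried 52 of them, chromosome 3 carried 9, chromosome 11 carried 3 and chromosome 6 carried 1. The 5 genes left out were Hist1h2aa, Hist1h2ba, Hist1h2aj and Hist1h2al, with at most 8 counts in any library, and Hist2h3c1, listed at 0 in every library. Nearest to the threshold inside it were the pseudogene Hist3h2bb-ps, with a second highest count of 17, and Hist1h1t, with 21, and nearest outside it was Hist1h2aj, with 5.

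All mice were wild-type C57BL/6, and the cells were sorted by flow cytometry from lung homogenates on postnatal day 7. Hyperoxia, 95% oxygen on postnatal days 1 to 5, was represented by 3 female libraries (HF1 to HF3) and 2 male libraries (HM2 and HM3). Normoxia was represented by 3 female libraries (NF1 to NF3) and 3 male libraries (NM1 to NM3). The labels do not say whether a library is 1 animal or a pool, so each p-value reflects only how far these 11 libraries spread, part of which may be technical.

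Most animal mRNAs end in a poly(A) tail. The mRNAs of replication-dependent histones instead end just past a conserved stem-loop, which the stem-loop binding protein Slbp holds during 3-prime end formation, translation and decay. Their genes are transcribed in S phase, when the factor Npat, driven by cyclin E and its kinase Cdk2, assembles with them in the histone locus body, and the mRNAs are lost when replication stops. Alveolar macrophages divide locally in the lung after birth, and some of these genes also yield polyadenylated mRNA in differentiated or resting cells.

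The mRNA ends of the cluster genes could be read from the GENCODE M21 transcripts, which is where the class is told from other genes. The stem-loop was searched in the transcript strand past the stop codon as 16 bases, GGNNCTT followed directly by NTN and AGNNCC, and AATAAA, the main poly(A) signal, in the same stretch. Of the 49 members whose annotated transcript goes on at least 16 bases past the stop codon, 45 held a stem-loop (91.8%), against 39 of 20822 other coding genes (0.187%). It began 22 to 59 bases past the stop codon, with a median of 32. AATAAA was annotated in 16 of the 49 (32.7%), against 82.0% of the other genes. The 4 without the stem-loop letters were Hist1h1a, Hist1h2bc, Hist2h2be and Hist2h3b. Hist2h3b is annotated for only 37 bases past the stop codon and Hist1h1a for 48, so their annotation may end before a site is complete. Printed here, 5-prime to 3-prime, is 1 site for each of the 8 forms found in members and others for the most abundant genes, with the paired bases of the stem in capitals and the loop in lower case between them. The last is H2afx, the DNA damage variant H2A.X, which lies outside the clusters and has a stem-loop of its own.

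Hist2h2aa1: aaaaaGGCTCTtttcAGAGCCacccactga
Hist1h1c: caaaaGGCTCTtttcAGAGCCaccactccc
Hist1h3b: ccaaaGGCTCTtttcAGAGCCacccacagt
Hist1h2bb: ccaaaGGCTCTtttaAGAGCCacccacact
Hist1h3g: ttaaaGGCTCTtcttAGAGCCacccatctt
Hist2h2ac: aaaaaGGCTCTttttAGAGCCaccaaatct
Hist1h4d: ccaaaGGCCCTtttcAGGGCCactaccttc
Hist1h4i: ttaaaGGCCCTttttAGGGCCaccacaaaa
Hist1h4b: caaaaGGTCCTtttcAGGACCactcactga
Hist1h4a: ccaaaGGCCCTtctcAGGGCCgcccacatt
H2afx: acaaaGGCCCTtttaAGGGCCaccacctcc

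The form with GGCTCT and the loop tttc, printed for Hist2h2aa1, Hist1h1c and Hist1h3b, was shared by 25 members of the H1, H2A, H2B and H3 classes. The form printed for Hist1h2bb, with the loop ttta, was held by 6. The H4 genes kept apart. Their commonest form, printed for Hist1h4d, was held by 7 members, all H4. The form of Hist1h4i was shared with Hist2h4, that of Hist1h4b with Hist1h4j, and that of Hist1h4a was its own. All 12 H4 genes with enough annotated sequence and all 11 such H2A genes held a stem-loop.

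RefSeq promoters (build GRCm38.p6, 250 bases before to 50 after the start) were matched for 59 of the 65 members. They were searched on both strands for CCAAT, bound by NF-Y, for TATAAA, the TATA box, and for ATTTGCAT, the octamer bound by Oct-1. A gene counted where any of its promoters held the motif. CCAAT stood in 50 of the 59 (84.7%), against 41.0% of 26963 other genes. It was present in all 6 H1, 17 H2A, 15 H2B and 9 H3 promoters but in 3 of 12 H4 promoters (25%). TATAAA stood in 55.9% of the 59 members, against 15.6% of the other genes. By class it stood in 4 of 6 H1, 10 of 17 H2A, 7 of 15 H2B, 4 of 9 H3 and 8 of 12 H4 promoters. The octamer stood in 20.3%, against 1.9% of the other genes, with 6 in H2A and 6 in H2B promoters and 0 in the other classes. Some H2A and H2B genes lie on opposite strands with overlapping windows, so the same site can count in both classes for any of the 3 motifs. Hist1h2ae and Hist1h2bg share their octamer in this way, as do Hist1h2ah and Hist1h2bk. The promoters of Hist1h1c (chr13:23738557-23738856, plus strand), Hist1h2bb (chr13:23746484-23746783, plus strand) and Hist1h4b (chr13:23756687-23756986, plus strand) are printed as examples, with every match to the 3 motifs on either strand in capitals. In TATAAA they do not stand for their classes, since most H1 and H4 promoters hold it.

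Hist1h1c: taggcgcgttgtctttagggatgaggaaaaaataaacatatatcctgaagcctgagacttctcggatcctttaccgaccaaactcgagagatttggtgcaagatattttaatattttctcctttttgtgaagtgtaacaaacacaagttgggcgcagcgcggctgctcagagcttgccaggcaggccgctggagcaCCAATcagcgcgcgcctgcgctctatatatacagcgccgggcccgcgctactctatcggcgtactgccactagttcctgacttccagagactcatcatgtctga
Hist1h2bb: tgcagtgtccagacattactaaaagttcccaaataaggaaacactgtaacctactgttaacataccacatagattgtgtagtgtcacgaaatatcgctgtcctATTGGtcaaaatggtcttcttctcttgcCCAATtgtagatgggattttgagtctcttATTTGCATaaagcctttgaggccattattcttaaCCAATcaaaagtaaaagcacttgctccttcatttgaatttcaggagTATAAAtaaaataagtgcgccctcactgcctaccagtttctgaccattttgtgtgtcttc
Hist1h4b: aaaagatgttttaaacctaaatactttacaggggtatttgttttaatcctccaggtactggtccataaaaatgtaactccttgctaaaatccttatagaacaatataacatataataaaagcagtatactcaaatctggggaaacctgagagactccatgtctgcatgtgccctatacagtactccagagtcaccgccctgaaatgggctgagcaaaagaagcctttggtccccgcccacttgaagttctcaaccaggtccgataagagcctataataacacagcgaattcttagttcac

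Hist1h1c, the most abundant H1 gene, had 1 CCAAT 54 bases before the start, and Hist1h2bb had CCAAT at 3 places, the octamer 90 bases and TATAAA 10 bases before the start. Hist1h4b had no match to any of the 3 motifs in this window. A match is a string of letters and no evidence that a factor binds there.

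Total counts ran from 18087948 to 32579468 per library. Levels are in CPM, a gene's counts scaled to a common library size with TMM factors. Alveolar macrophage markers were present in every library, the integrin Itgax at 302 CPM or more and the lectin Siglecf at 157 CPM or more, while of 8 neutrophil markers Ly6g was at 0 in all 11, S100a8 at 3.28 to 11.9 CPM and Csf3r at 10.2 to 50.3 CPM. Summed erythroid markers ran from 54.0 CPM in HM2 to 1218 CPM in NM1. HF2, HF3, NF3 and NM3 stood apart in detecting more genes and in the summed olfactory and vomeronasal receptor genes. These receptor genes were at 135 to 270 CPM there, against 51.4 to 80.0 CPM in the other libraries. The labels' protocols name more than 1 library chemistry, so how fully mRNA without a poly(A) tail was captured is not known. In bulk RNA, fewer cells making a transcript and less RNA per cell cannot be told apart.

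The members differed widely in level. Per kb of coding sequence, Hist2h2aa1, for H2A, was highest at a mean of 1280 CPM per kb over the 11 libraries. The linker histone genes Hist1h1c, Hist1h1d and Hist1h1e followed Hist2h2aa1 at 963, 864 and 739 CPM per kb, with Hist1h2ap at 778 CPM per kb between them. Among the other classes the highest were Hist1h4d for H4, at 458 CPM per kb, Hist2h3c2 for H3, at 355 CPM per kb, and Hist1h2bn for H2B, at 306 CPM per kb. The testis H1 gene Hist1h1t was lowest of the coding members at 0.776 CPM per kb, and Hist1h2bq, Hist3h2ba and Hist2h2be were under 3 CPM per kb. The plot of mean levels shows H1 led by 3 genes and H2A by 2, with no such gap below the leading H2B genes. Counts are per gene, so reads past the coding sequence may add to these levels. Annotated exons span 7425 bases for Hist1h1d (663 coding), 1138 for Hist1h4d (309 coding) and 381 for Hist1h2bn (378 coding). The order of genes and classes may therefore differ per kb of exon, which was not tested.

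**Figure D1:**
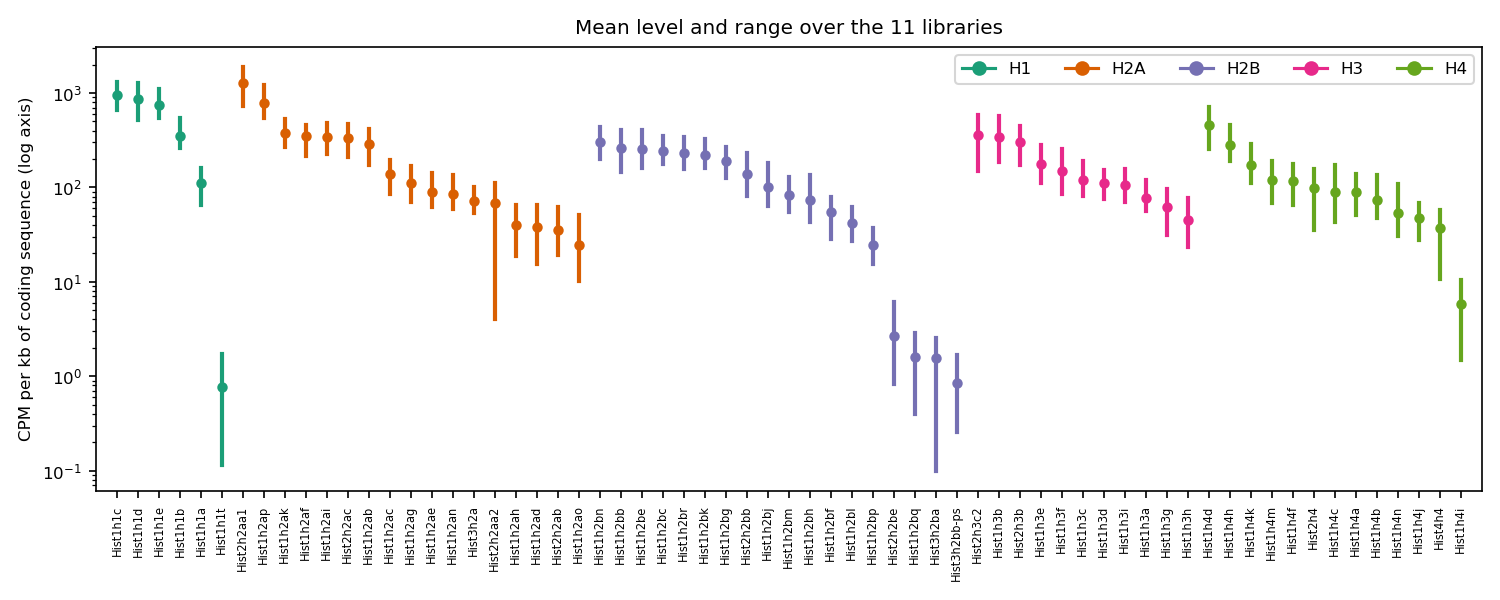
Mean level of each member (dots) and its lowest and highest library (lines), in CPM per kb of coding sequence on a log axis, by class; the pseudogene is set on its transcript length, and values under 0.1, among them the 0 of Hist3h2ba in NM2, are drawn at 0.1. Hist2h2aa1 is highest at 1280 CPM per kb and Hist1h1t lowest of the coding genes at 0.776 CPM per kb.

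The proportions between classes varied between libraries. H1 genes held 31.3% to 37.8% of the members' summed level, H2A 27.7% to 32.8%, H2B 13.6% to 15.7%, H3 9.88% to 14.0% and H4 7.28% to 9.47%. The lowest H3 share, 9.88%, was in NM3, and the lowest H4 share, 7.28%, in NF2. By oxygen group, the H1 share was 31.3% to 33.1% after hyperoxia and 32.5% to 37.8% in normoxia. The H2A share was 29.3% to 32.8% after hyperoxia and 27.7% to 31.2% in normoxia. The groups overlapped in every class share, and the shares were not tested.

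After hyperoxia, no histone cluster gene passed the test. The question was whether macrophages of exposed pups carried more or less histone mRNA on day 7. Summed over the 65 members, the level was 6061, 4307 and 6633 CPM in HF1, HF2 and HF3 and 8538 and 5343 CPM in HM2 and HM3, against a lowest, median and highest of 4402, 5282 and 7956 CPM in the 6 normoxia libraries. The hyperoxia mean was 6176 ± 1580 CPM (SD, n = 5) and the normoxia mean 5526 ± 1296 CPM (SD, n = 6). HF2 lay below every normoxia library and HM2 above every one, so the groups overlapped over nearly their whole range. With edgeR's quasi-likelihood test over all 19948 genes, 0 of 65 members had an adjusted p under 0.05, where 0.707% of all genes tested did. DESeq2 also called 0. At an unadjusted p under 0.05 there were 3 members (Hist1h4b, Hist1h2bj and Hist1h2bh), all higher after hyperoxia, beside 8.13% of all genes in either direction and 4.79% higher. Leaving out 1 library moved this count between 0 (without HM2 or NM3) and 12 (without HM3 or NM1), and the replicate block took it to 16. No member separated the 5 hyperoxia from the 6 normoxia libraries, where 1.76% of all genes lay wholly above and 0.396% wholly below.

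The members' log2 fold changes were small and mostly on one side of 0. Their median was 0.22 (lowest -0.80, highest 0.99), and 58 of 65 were above 0, where the median of all genes was -0.03 and 45.9% were above 0. The size of the median depended on the 2 male hyperoxia libraries. Without HM2, which leaves HM3 alone for hyperoxia males, the median was 0.05 with 37 of 65 members above 0. Leaving out each of the other 10 libraries gave 0.13 to 0.36, the highest without HM3, with 60 of 65 above 0. In females, a contrast without HM2 and HM3, it was 0.23.

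**Figure D2:**
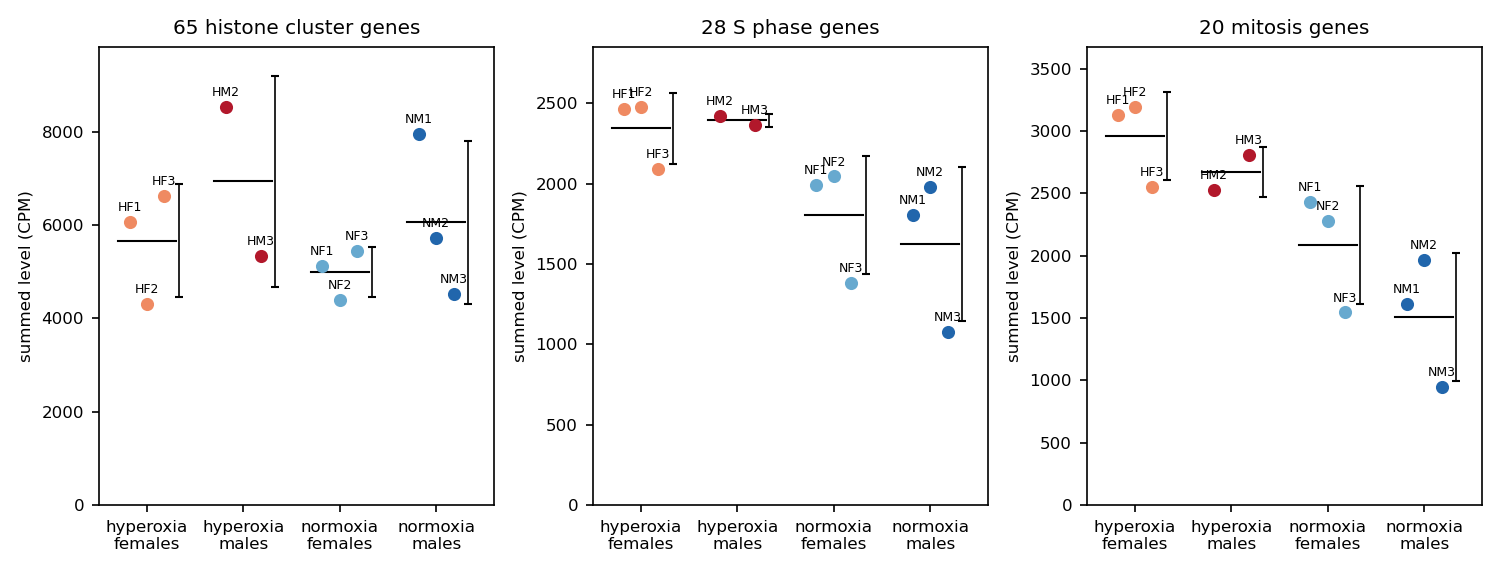
Summed level in CPM of the 65 histone cluster genes, of 28 S phase genes and of 20 mitosis genes in each library (dots, named), with the mean of each group (line) and its SD (bar beside it). The S phase and mitosis sums of the 5 hyperoxia libraries lie above those of all 6 normoxia libraries, and the histone sums overlap.

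Among the linker histones, which bind between nucleosomes, Hist1h1c and Hist1h1d, the 2 most abundant, lay near 0. Hist1h1c had 623, 419 and 616 CPM in HF1, HF2 and HF3 and 814 and 548 CPM in HM2 and HM3, against a lowest, median and highest of 438, 585 and 834 CPM in normoxia. The hyperoxia values fell within the normoxia range but for HF2, and the log2 fold change was -0.01 ± 0.21 (SE, adjusted p = 0.999). Hist1h1d had -0.08 ± 0.24, Hist1h1e 0.22 ± 0.20 and Hist1h1b 0.27 ± 0.21. The class median was 0.10, with 3 of 6 genes above 0.

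The H2A genes, whose protein pairs with H2B, had a class median of 0.26, with 15 of 17 above 0. Hist2h2aa1 had 552, 406 and 661 CPM in HF1, HF2 and HF3 and 733 and 447 CPM in HM2 and HM3, against 284, 431 and 704 CPM as lowest, median and highest in normoxia. HM2 was the highest library and NF2 the lowest, and the log2 fold change was 0.35 ± 0.23 (adjusted p = 0.822). Hist1h2ap had 0.35 ± 0.20 and Hist1h2ak 0.08 ± 0.22. Below 0 stood Hist1h2ao, at -0.31 ± 0.23, and Hist2h2aa2, at -0.36 ± 0.64, each the weaker gene of a pair with the same coding sequence.

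In the H2B class 16 of 18 genes were above 0, with a median of 0.19. Hist1h2bj had 40.5, 27.4 and 47.3 CPM in HF1, HF2 and HF3 and 67.9 and 40.2 CPM in HM2 and HM3, against 24.2, 30.1 and 52.2 CPM as lowest, median and highest in normoxia. Apart from NM1, every normoxia library lay below 4 of the 5 hyperoxia libraries. Its log2 fold change was 0.46 ± 0.21 (adjusted p = 0.570 by edgeR). Hist1h2bh was alike, with 32.6, 23.3 and 29.8 CPM in HF1, HF2 and HF3, 51.1 and 26.9 CPM in HM2 and HM3, and 16.3 to 42.8 CPM in normoxia, a log2 fold change of 0.48 ± 0.22 (adjusted p = 0.587 by edgeR). The most abundant H2B genes, Hist1h2bn, Hist1h2bb and Hist1h2be, stood at 0.02 ± 0.20, 0.02 ± 0.22 and 0.05 ± 0.22. Reads of Hist1h2be are uncertain, since its annotated gene overlaps Hist1h1e on the same strand. Hist2h2be, which codes for an H2B known from olfactory neurons, was at 0.309 to 1.09 CPM after hyperoxia and 0.647 to 2.32 CPM in normoxia, with a log2 fold change of -0.66 ± 0.43 (adjusted p = 0.833).

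All 11 H3 genes were above 0, with a median of 0.21, though 5 of 11 were without HM2. Hist2h3c2 had 177, 117 and 180 CPM in HF1, HF2 and HF3 and 238 and 149 CPM in HM2 and HM3, against a lowest, median and highest of 61, 123 and 179 CPM in normoxia. HM2 stood highest and NM3 lowest, the groups overlapped, and the log2 fold change was 0.51 ± 0.25 (adjusted p = 0.621 by edgeR). Hist1h3b had 0.30 ± 0.24 and Hist2h3b 0.34 ± 0.21.

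All 13 H4 genes were above 0 as well, with a median of 0.23, and they code for 1 and the same protein. Without HM2, 8 of 13 were above 0. Hist1h4b had the smallest p of any member. It had 21.9, 19.3 and 29.0 CPM in HF1, HF2 and HF3 and 41.5 and 24.7 CPM in HM2 and HM3, against 14.5, 17.1 and 32.4 CPM as lowest, median and highest in normoxia. Apart from NM1, each normoxia library lay below every hyperoxia library. Its log2 fold change was 0.55 ± 0.21 (adjusted p = 0.395 by edgeR). Hist1h4d, the leading H4 gene, had 0.33 ± 0.22, Hist1h4h 0.23 ± 0.21 and Hist1h4k 0.39 ± 0.21. Hist1h4i, at 1.73 to 3.23 CPM after hyperoxia and 0.458 to 1.94 CPM in normoxia, had 0.67 ± 0.36 (adjusted p = 0.725).

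**Figure D3:**
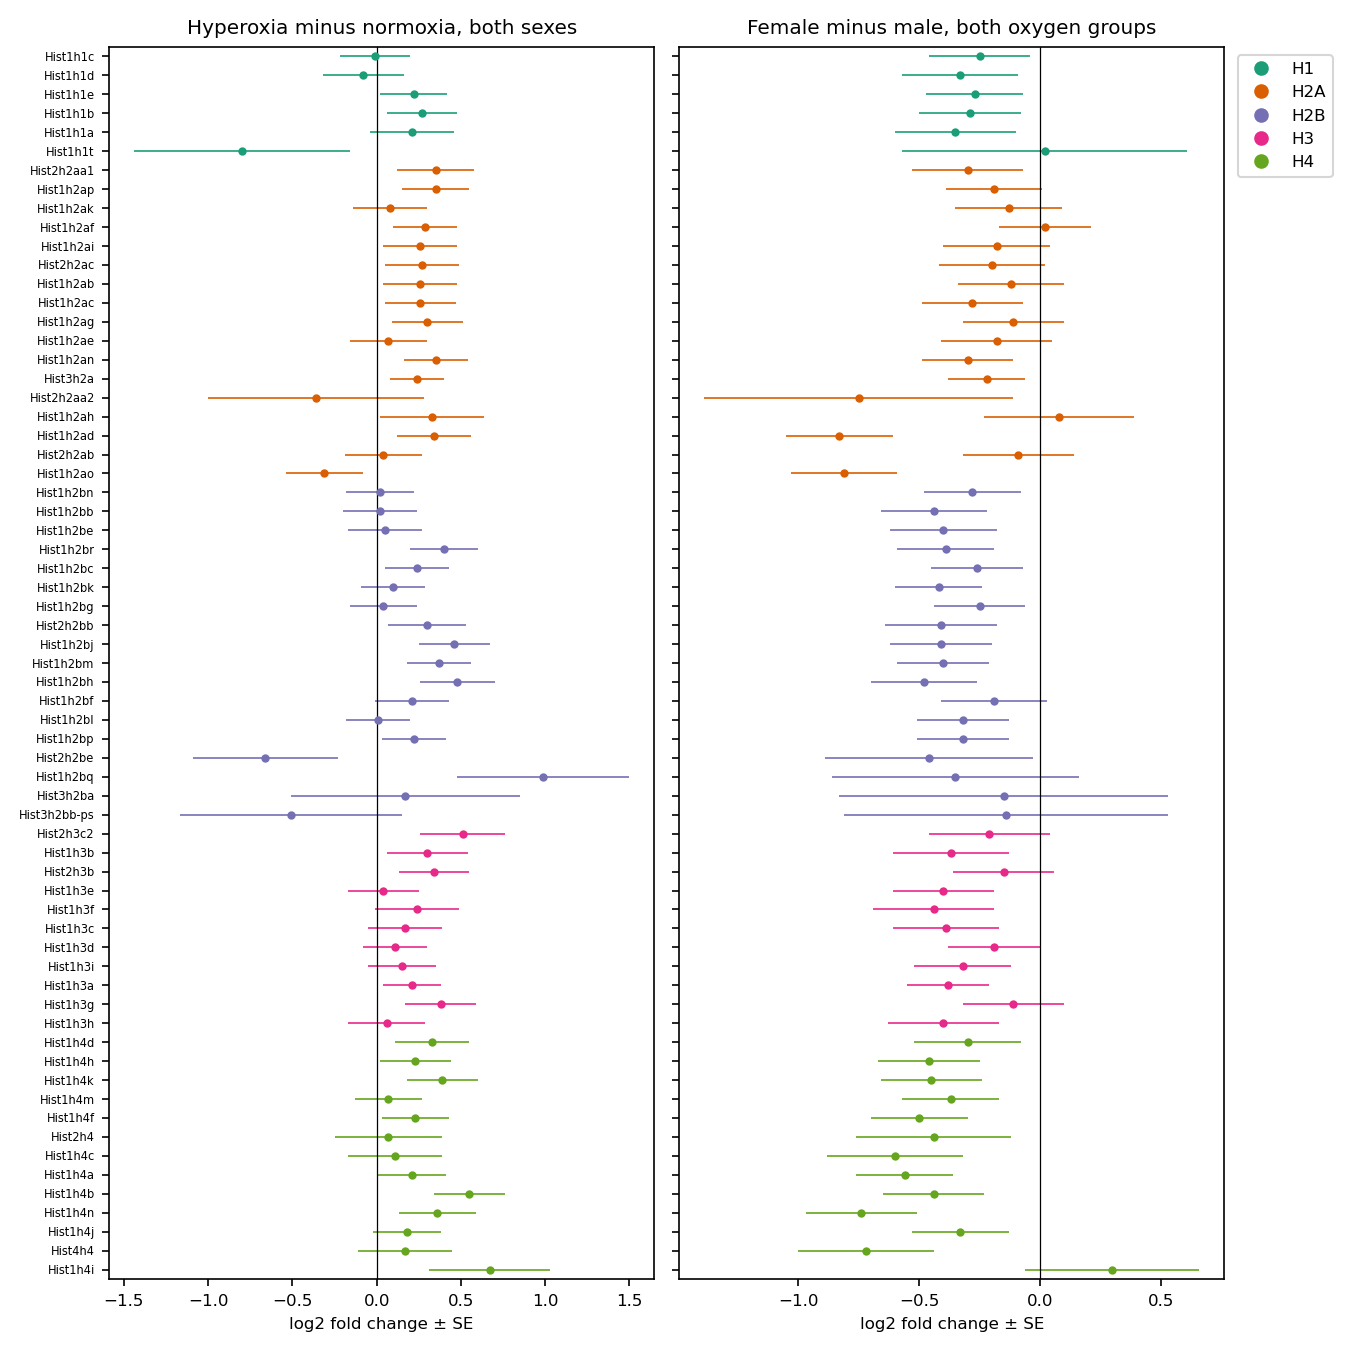
Log2 fold change with its SE for each member, coloured by class, for hyperoxia minus normoxia over both sexes (left) and female minus male over both oxygen groups (right). On the left 58 of 65 members lie above 0 and on the right 61 of 65 lie below 0, and none passes the adjusted threshold in either.

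Within each sex the median was about the same, and again no member passed. In females it was 0.23 with 55 of 65 members above 0, where 49.4% of all genes were, beside 0.0401% of all genes called, and 1 member, Hist1h2ad, had an unadjusted p under 0.05 (0.63 ± 0.30), where 4.53% of all genes did. In males it was 0.22 with 51 of 65 above 0, where 45.6% of all genes were, also beside 0.0401% of all genes called, and 0 members had an unadjusted p under 0.05, where 5.5% of all genes did. Leaving out HM2 took the male median to -0.15 with 18 of 65 above 0. With 1 male hyperoxia library left, that library is assumed to vary like the other groups. The female median stayed between 0.12 and 0.41 whichever library was left out. The difference between the sexes in their response was tested directly, and 0 of 65 members passed, as did 0% of all genes, with 0 members against 1.67% of genes at an unadjusted p under 0.05. Its median over the members was 0.04 and ran from -0.33 without HM3 to 0.34 without HM2. Without HM2 60 of 65 members were above 0 in this difference, and without HM3 10 of 65.

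**Figure D4:**
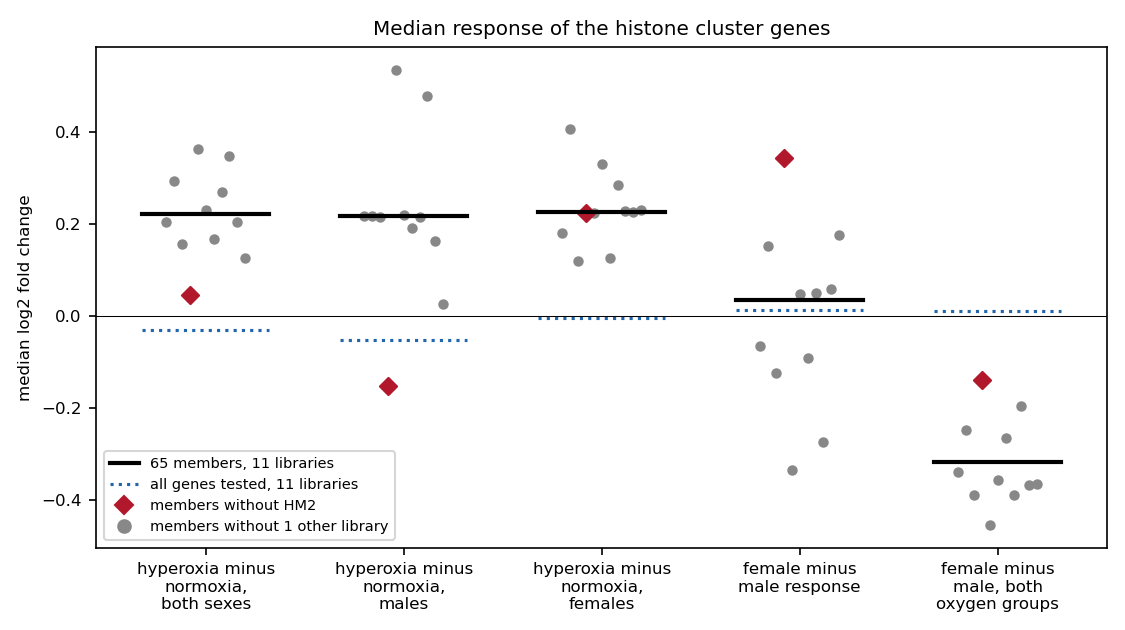
Median log2 fold change of the 65 members with all 11 libraries (black line), with HM2 left out (red diamond) and with 1 other library left out (grey dots), beside the median of all genes tested (blue dotted line), for 5 contrasts. Without HM2 the median after hyperoxia is 0.05 over both sexes and -0.15 in males.

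In 6 of the 10 pairs of libraries within a group, 1 library was the higher in 59 or more of the 65 members. HM2 exceeded HM3 in 62 of 65 members, by a median of 1.59 times. HF1 and HF3 each exceeded HF2 in 62 of 65. NM1 exceeded NM2 in 61 of 65, by a median of 1.41 times, and NM3 in 59 of 65, by 1.85 times. NF1 exceeded NF2 in 60 of 65. In the other 4 pairs the counts were 31 of 65 for NF3 over NF1, 47 for HF3 over HF1, 48 for NF3 over NF2 and 50 for NM2 over NM3. Of all genes, 46.4% to 52.5% were higher in the first library of these 10 pairs. HM2 was the highest of the 11 libraries for 40 members and NM1 for 18. NM3 was the lowest for 22, NF2 for 20 and HF2 for 13. The rank of a library in histone level did not follow its place among the groups: the highest 2 were a hyperoxia and a normoxia male library, HM2 and NM1. These 2 also had the lowest and the highest summed erythroid markers, 54.0 and 1218 CPM, and the part of other cells in the histone level was not tested.

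**Figure D5:**
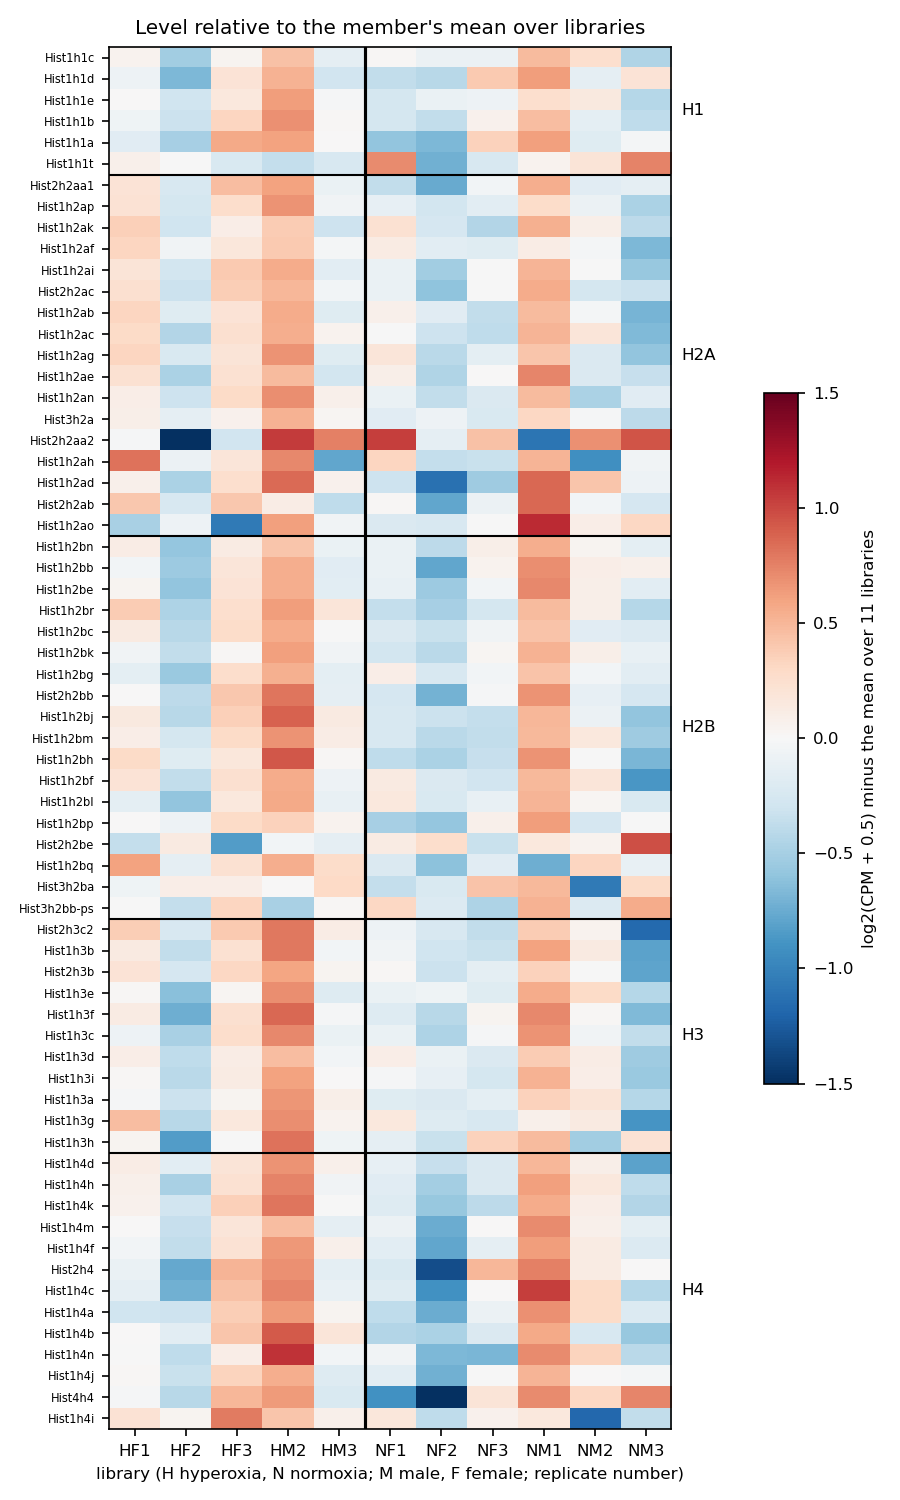
Level of each member in each library, as log2(CPM + 0.5) minus the member's mean over the 11 libraries, by class and falling mean level, with the 5 hyperoxia libraries left of the line and the 6 normoxia libraries right of it. The columns HM2 and NM1 are high in nearly all members, and HF2, NF2 and NM3 are low.

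The histone sum also did not follow the S phase genes. The 28 S phase genes summed to 2465, 2478 and 2090 CPM in HF1, HF2 and HF3 and 2423 and 2365 CPM in HM2 and HM3, against 1078, 1893 and 2044 CPM as lowest, median and highest in normoxia, with no overlap. Of these 28 genes 1 passed the test, Rrm2, the small subunit of ribonucleotide reductase, at 0.83 ± 0.18 (adjusted p = 0.0392), a call lost on leaving out any 1 of the 5 hyperoxia libraries, NF1 or NF2, with log2 fold changes of 0.81 to 0.88. All 28 were above 0, with a median of 0.47, and 17 had an unadjusted p under 0.05. Of all genes tested, 45.9% were above 0, 8.13% had such a p and 0.707% passed the test. Mitosis genes had 2 of 20 past the test, the kinases Aurka (0.75 ± 0.15, adjusted p = 0.0315) and Bub1 (0.74 ± 0.16, adjusted p = 0.0403), and all 20 above 0, with a median of 0.72. These 2 calls were lost on leaving out any 1 of the same 7 libraries, with 0.66 to 0.85 for Aurka and 0.71 to 0.78 for Bub1. Without NM3, NF3, HF2 and HF3 all 3 calls were lost, at 0.61 for Rrm2, 0.61 for Aurka and 0.54 for Bub1, and that of Bub1 also without robust estimation (adjusted p = 0.0506 by edgeR). Summed epithelial markers moved with the same groups, at 388 to 473 CPM after hyperoxia and 191 to 366 CPM in normoxia. That sum was mostly Cdh1, with a median of 272 CPM over the 11 libraries, against 34.4 CPM for Sftpc. It therefore followed 1 gene more than the list, and alone is no measure of epithelial cells. By gene, the epithelial markers had a median log2 fold change of 0.37 (lowest -0.85), with 7 of 10 above 0 and 0 past the test. Monocyte markers had a median log2 fold change of 0.66 with 8 of 8 above 0 and 0 past the test. They summed to 1154 to 2303 CPM after hyperoxia and 592 to 2352 CPM in normoxia. That sum was mostly Fn1, at 543 to 2283 CPM over the 11 libraries, while Ly6c2 had a median of 0.449 CPM and Ccr2 one of 32.3 CPM. Of 12 alveolar macrophage markers 3 fell (Fabp4, Ear1 and Krt79), with a median of -0.28 and sums of 4776 to 6933 CPM after hyperoxia and 4342 to 7555 CPM in normoxia. Erythroid markers had a median of -1.28 with 0 of 7 above 0, and endothelial markers one of -0.71 with 0 of 8 above 0. The part of these cell types in the S phase, mitosis and Ccne1 values was not tested. The histone sum divided by the S phase sum was 2.46, 1.74 and 3.17 in HF1, HF2 and HF3 and 3.52 and 2.26 in HM2 and HM3, against a lowest of 2.15, a median of 3.41 and a highest of 4.41 in normoxia. HF2 combined the highest S phase sum of the 11 libraries with the lowest histone sum. These lists were chosen with earlier results of these data known.

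Of the factors that make and process histone mRNA, 22 genes were tested, 1 rose and 0 fell after hyperoxia, with a median of 0.10. Among all genes tested 0.707% passed. The gene that rose was Ccne1, cyclin E1, which starts S phase and drives Npat. It had 18.1, 23.7 and 23.0 CPM in HF1, HF2 and HF3 and 23.1 and 23.7 CPM in HM2 and HM3, against 9.10, 13.2 and 14.3 CPM as lowest, median and highest in normoxia. The groups did not overlap, where 1.76% of all genes lay wholly above. The log2 fold change of Ccne1 was 0.87 ± 0.16 (adjusted p = 0.0139 by edgeR). It was 0.89 without HM2, 0.87 without HM3 and 0.60 without NM3, NF3, HF2 and HF3, with adjusted p of 0.0927, 0.111 and 0.168. Slbp, the stem-loop binding protein, averaged 63.7 ± 5.15 CPM after hyperoxia and 57.7 ± 11.96 CPM in normoxia (SD, n = 5 and 6), a log2 fold change of 0.14 ± 0.18 (adjusted p = 0.978). Npat had 0.45 ± 0.19 (adjusted p = 0.503) and Casp8ap2, the FLASH protein of the histone locus body, 0.43 ± 0.21 (adjusted p = 0.658). Lsm10 and Lsm11, the proteins particular to the U7 snRNP that cuts histone pre-mRNA, had -0.59 ± 0.15 (adjusted p = 0.106) and -0.09 ± 0.15 (adjusted p = 0.994). DESeq2 called Lsm10 lower (adjusted p = 0.0235).

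The chaperones that carry new histones to chromatin had 0 of 23 genes past the test and a median of 0.23. At an unadjusted p under 0.05 there were 3 of 23. Among all genes tested 0.707% passed and 8.13% had such a p. The smallest p was that of Asf1b, which hands H3 and H4 to the assembly factor CAF-1. It averaged 33.1 ± 2.51 CPM after hyperoxia and 21.4 ± 5.11 CPM in normoxia, without overlap, where 1.76% of all genes lay wholly above. Asf1b had a log2 fold change of 0.64 ± 0.18 (adjusted p = 0.126 by edgeR, 0.0180 by DESeq2). It was called by edgeR with the replicate block (0.71, adjusted p = 0.0312) and without NM2 (0.75, adjusted p = 0.0429). Chaf1b, a subunit of CAF-1, had 0.48 ± 0.16 (adjusted p = 0.291).

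Histone variants, which come from genes outside the clusters and mostly do not depend on replication, had 0 of 11 past the test and a median of 0.05. H3f3a and H3f3b, for H3.3, had -0.26 ± 0.20 and -0.14 ± 0.17, and the H2A.Z genes H2afz and H2afv 0.12 ± 0.19 and 0.32 ± 0.16. H2afx, with its stem-loop, averaged 92.4 ± 14.5 CPM after hyperoxia and 68.8 ± 16.1 CPM in normoxia, at 0.44 ± 0.20 (adjusted p = 0.540). The centromere H3 gene Cenpa had 0.48 ± 0.16 (adjusted p = 0.291) and H2afj -0.51 ± 0.20 (adjusted p = 0.421). The linker variants H1f0 and H1fx had -0.07 ± 0.15 and 0.01 ± 0.50, and the macroH2A genes H2afy and H2afy2 0.21 ± 0.19 and 0.05 ± 0.63. H1fx and H2afy2 averaged under 1 CPM in both groups.

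Between the sexes the members lay on the other side of 0. Female libraries summed to 6061, 4307 and 6633 CPM after hyperoxia and 5121, 4402 and 5443 CPM in normoxia, and male libraries to 8538 and 5343 CPM after hyperoxia and 7956, 5720 and 4514 CPM in normoxia. The female mean was 5328 ± 916 CPM (SD, n = 6) and the male mean 6414 ± 1741 CPM (SD, n = 5), with HM2 and NM1 above all female libraries and the other males among them. Over both oxygen groups the median log2 fold change, female minus male, was -0.32, with 61 of 65 members below 0, where the median of all genes was 0.01 and 48.4% were below 0. No member passed the test (0.0251% of all genes did), the smallest adjusted p being 0.643 by edgeR. At an unadjusted p under 0.05 there were 14 members, all lower in females, beside 3.27% of all genes in either direction and 2.4% lower. That count was 2 without HM2, 3 without NM1, 4 without HF2 or NF2, 6 without NF1 and 9 without HF1, and reached 25 without HM3 or NM3. No member had its female libraries all below its male libraries, where 0.281% of genes did, or all above them, where 0.0451% did. Within hyperoxia the median was -0.32, with 2 members at an unadjusted p under 0.05 beside 1.73% of all genes, and within normoxia it was -0.31, with 6 members beside 3.63%. Leaving out 1 library moved these counts between 1 (without HM2 or HF2) and 12 (without HM3) within hyperoxia and between 2 (without NM1) and 15 (without NM3) within normoxia. No member passed in either, though 2 passed within normoxia without a filter on low counts and 1 without NF3. Without HM2 the median over both oxygen groups was -0.14 and within hyperoxia 0.02, with 39 of 65 members above 0. Without NM1 the normoxia median was -0.03, with 30 of 65 above 0.

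The H4 genes held 8 of those 14 members, with a class median of -0.45, but 0 of 13 H4 genes had an unadjusted p under 0.05 without HM2 and 1 without NM1. Hist1h4n had 15.5, 11.8 and 16.8 CPM in HF1, HF2 and HF3 and 15.01, 9.53 and 9.48 CPM in NF1, NF2 and NF3, against 33.6 and 15.1 CPM in HM2 and HM3 and 25.8, 19.8 and 11.6 CPM in NM1, NM2 and NM3. Only HM2, NM1 and NM2 exceeded every female library, and the log2 fold change was -0.74 ± 0.23 (adjusted p = 0.943 by edgeR). In the H2A class Hist1h2ad had the smallest p, at -0.83 ± 0.22 (adjusted p = 0.643 by edgeR). It averaged 11.3 ± 3.82 CPM in females and 19.4 ± 5.85 CPM in males (SD, n = 6 and 5). Hist1h2ao followed at -0.81 ± 0.22 (adjusted p = 0.663), with means of 7.08 CPM in females and 12.6 CPM in males. Hist1h2ao and Hist1h4n have the same coding sequences as Hist1h2ap and Hist1h4m, so their values may not belong to 1 gene. The same may hold for Hist1h2ad, whose coding sequence is 99.49% identical to that of Hist1h2ag and 99.23% to that of Hist1h2ap. Summed, Hist1h2ao and Hist1h2ap averaged 295.6 CPM in females and 334.3 CPM in males. Hist1h4m and Hist1h4n together averaged 45.6 CPM in females and 63.4 CPM in males. The sexes overlapped in both sums, which were not tested between the sexes. Hist1h4i stood alone among H4 genes in lying above 0, at 0.30 ± 0.36. The S phase genes had a median of 0.04 and the mitosis genes one of 0.11 in the same contrast, while the variants outside the clusters had -0.20 with 1 of 11 above 0. Erythroid markers had a median of -0.44 with 0 of 7 above 0 and 0 past the test. Monocyte markers had one of 0.43 with 7 of 8 above 0, and neutrophil markers one of 0.32 with 5 of 5 above 0. The other marker lists had medians between -0.12 (epithelial) and 0.02 (alveolar macrophage). The part of these cell types in the sex values was not tested.

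Several members cannot be counted apart from a copy. Hist2h2aa1 and Hist2h2aa2 have coding sequences 100% identical, both lie on chromosome 3, and the stem-loop site printed for Hist2h2aa1 has the same letters in Hist2h2aa2. The share of the pair counted to Hist2h2aa1 was 96.4%, 99.6% and 97.5% in HF1, HF2 and HF3 and 94.3% and 92.6% in HM2 and HM3, against 89.6% to 98.7% in normoxia. Hist2h2aa2 itself ran from 1.56 CPM in HF2 to 44.0 CPM in HM2, beside 284 to 733 CPM for its partner. Summed, the pair had a log2 fold change of 0.32 ± 0.22 after hyperoxia (adjusted p = 0.852 by edgeR), against -0.36 for Hist2h2aa2 alone. Hist1h2ao and Hist1h2ap also have 1 coding sequence, with 1.11% to 5.27% of the pair counted to Hist1h2ao, and together had 0.33 ± 0.20 (adjusted p = 0.809), against -0.31 for Hist1h2ao alone. The pairs Hist1h2bq with Hist1h2br and Hist1h4m with Hist1h4n gave 0.41 ± 0.20 and 0.17 ± 0.21 when summed. Hist2h3c2 shares its coding sequence with Hist2h3c1, which is listed at 0, so its reads may stand for both. Other members differ from a copy at few bases. Hist2h3b is 99.75% identical to Hist2h3c2 in coding sequence, and Hist1h2bj 99.47% to Hist1h2bq and Hist1h2br. Their reads may not be fully told apart either. How the authors' counting placed reads that fit more than 1 copy is not given in the sources used here.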

How the data were processed

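Bulk RNA-seq of 11 libraries was analysed from the deposited table of whole-number counts per Ensembl gene. The submitters' processing notes name the build mm39 and, with no role given, Salmon 1.10.1, STAR 2.7.9, DESeq2 1.42, Trim Galore 0.6.7 and R 4.3.2. Per the labels' protocols, a SMART-Seq v4 low-input kit was used, but a Pico v3 UMI adapter is named too, and which applies here is unclear. Part of the libraries was sequenced again after removal of fragments under 250 bp. Kits that prime on poly(A) and kits that prime at random differ in capturing mRNA without a poly(A) tail, so how fully it was captured here is not known. Whether UMIs were collapsed or strand was used in the authors' counts is not given in the sources used here. Annotation from GENCODE M21 (GRCm38) gave symbols for 51884 of 57180 identifiers (90.7%). Total counts were 18087948 to 32579468, and the floor of 3 counts was 0.088 to 0.16 CPM, which covers counting error only.

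All groups were fitted together in edgeR 4.0.16 (R 4.3.3; filterByExpr with a minimum of 10 counts, TMM, robust quasi-likelihood), with Benjamini-Hochberg adjustment over 19948 genes. Members were named by rule: any past the test or with oxygen groups that do not overlap, the 3 highest in CPM per kb of each class, and the 5 highest and 5 lowest fold changes over both sexes among those at a mean log2 CPM of 0 or more. Of the other lists, the rule named every variant, every processing or chaperone gene past the test, Slbp, Npat, Casp8ap2, Lsm10, Lsm11 and the 2 of smallest p. Hist1h2ad, Hist1h4n and other genes outside the rule were chosen after their values were seen. The members and lists were chosen with earlier results of these data known. Alternatives were RLE scaling, DESeq2 1.42.0, other filters, no robust estimation, a replicate block, summed copies and left-out libraries. Same-numbered libraries did not all deviate together (r from -0.17 to 0.57, 7 of 15 pairs over 0.1), so the numbers were not taken to pair them. Those 7 pairs were all without HM2 and HM3, which as the only 2 libraries of their group deviate as mirror images. Outside the pairs with HM2 or HM3, HF2 with NF2 and with NM2 had r of -0.09 and -0.17. Differently numbered libraries reached an r of 0.51 (HF1 with NM2). The scripts were tested on simulated data.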

Additional observations from a re-analysis of the deposited data

Results flagged for a closer look

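Of 100 groups of libraries checked, 9 had 1 library far from the rest, where chance gives about 1 in 20. NM1 was far above the other normoxia libraries for Hist1h2ao (19.96 CPM), Hist1h2bj (52.2 CPM), Hist1h4b (32.4 CPM), the summed members (7956 CPM) and the summed H2A genes (2302 CPM). NM3 was far above them for Hist2h2be (2.32 CPM) and for H1fx (2.12 CPM), and far below them for Bub1 (13.9 CPM). HF1 was far below the other hyperoxia libraries for Ccne1 (18.1 CPM).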

How the results depend on the processing

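No member was called in the oxygen contrasts under any of the 18 alternatives. Without a filter on low counts, 1 member, Hist1h2ad, was called lower in females (-0.81, adjusted p = 0.0188 by edgeR). Reads counted to Hist1h2ad may in part belong to its near-identical copies. Leaving out 1 library at a time moved the members' median from -0.15 to 0.54 in males and from -0.335 to 0.343 for the female minus male response, with the ends set by HM2 and HM3. The replicate block gave a median of 0.30 with 59 of 65 members above 0, 0 called and 16 at an unadjusted p under 0.05, and called 256 genes in all against 141 without it. DESeq2 called 446 genes over both sexes, 0 of them members, no filter 302, and leaving out 1 library 36 (without HM3) to 195 (without NM2). Without NM3, NF3, HF2 and HF3, a choice made with their profile known, the median was 0.20. Fold changes changed sign in several genes, none of them called, and the cause was not tested. Most were near 0 with all libraries, but Hist2h2aa2, at -0.36, and Hist1h2ao were among the lowest members. With RLE scaling and with DESeq2, Hist1h2bb and Hist1h2bn were at -0.008 and H1fx at -0.024. With the replicate block, Hist1h1c was at 0.048 and H1fx at -0.046. Without the 4 libraries, Hist1h1d was at 0.092, Hist2h2aa2 at 0.137, H1f0 at 0.031 and Slbp at -0.025. Summed with their copies, Hist2h2aa2 was at 0.322 and Hist1h2ao at 0.326. Leaving out 1 library gave -0.160 to 0.123 for Hist1h1c, -0.292 to 0.109 for Hist1h1d, -0.108 to 0.239 for Hist1h2ak, -0.173 to 0.187 for Hist1h2bb, -0.137 to 0.217 for Hist1h2be, -0.111 to 0.146 for Hist1h2bn, -0.131 to 0.011 for H1f0, -0.767 to 0.465 for H1fx and -0.432 to 0.936 for H2afy2. With 2 male hyperoxia libraries, the male and response values rest on few samples, and members near 1 CPM have wide errors.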
